A study of Rattus norvegicus with 29 samples.

Results

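Protein kinase C (PKC) isoforms were followed in the nucleus accumbens shell, the part of the ventral striatum that takes part in reward, of alcohol-preferring (P) rats, which were selected over generations for drinking ethanol freely. They were represented by 13 probe sets on an Affymetrix rat array whose only annotated gene symbol was Prkca, Prkcb, Prkcd, Prkce, Prkch, Prkcz, Prkci or Prkcq, out of 31099 probe sets in all. Each probe set was kept apart. The 3 groups were P rats with no ethanol (water, 9 arrays), with limited access to ethanol (limited, 10 arrays) and exposed to continuous ethanol (continuous, 10 arrays). The study's design gives 10 samples to each group, and the further water sample was not analysed here. The sources used here do not give age, sex, the amount and duration of drinking or pooling of animals. They do not say that each array stands for 1 animal either, and the p-values below rest on differences among arrays that may be technical. Values are log2 expression after RMA (robust multi-array average) by the authors, and a difference of 1 would be a doubling.

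PKC is a family of serine/threonine kinases that relay signals of receptors coupled to phospholipase C, which cleaves a membrane lipid into diacylglycerol and inositol trisphosphate. Conventional isoforms (Prkca, Prkcb) need calcium and diacylglycerol, calcium-independent isoforms (Prkcd, Prkce, Prkch, Prkcq) need diacylglycerol alone, and atypical isoforms (Prkcz, Prkci) need neither. In brain they act on receptor trafficking, transmitter release and synaptic plasticity, and mice lacking PKC epsilon are known to drink less ethanol than their littermates.

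The arrays were alike as a whole, with medians between 8.17 and 8.21, correlations between pairs from 0.986 to 0.998 and 0 identical pairs. The striatal markers Drd1, Drd2, Adora2a and Ppp1r1b lay between 9.64 and 12.70 in every array. Water replicates 2, 5 and 6 and limited replicates 6 and 7 stood apart on the second principal component of all tested probe sets (16.5% of the variance), at 15.6 to 22.2 where no other array exceeded 3.30. At the other end of that component lay continuous replicate 4, at -20.2, with the next array at -10.9. On the first component (20.3% of the variance) water replicates 9 and 7 were highest, at 37.1 and 20.6, with the next array at 14.7. Of 11 array measures (8 marker scores and 3 of RNA quality), 0 passed between any pair of groups after adjustment. Low exact permutation p values before adjustment were 0.0165 for endothelial and mural markers and 0.0219 for the beta-actin 3 prime minus 5 prime signal (continuous against water), 0.0156 for astrocyte markers (limited against water) and 0.0146 for the beta-actin signal (limited against continuous), with adjusted p of 0.120, 0.120, 0.172 and 0.113. The mean of the beta-actin and GAPDH signals, the joint measure of RNA quality, was 0.50 in limited and 0.57 in continuous arrays (exact permutation p = 0.0205, adjusted p = 0.113).

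No PKC transcript passed the test for a difference between the groups. Of the 13 probe sets, 12 passed the filter on dim probe sets and were tested, and they stood for all 8 genes. With limma, 0 of the 12 passed an adjusted p of 0.05 for continuous against water, where 0.152% of all 21729 tested probe sets did, 0 for limited against water (0% of all) and 0 for limited against continuous (0.0046% of all). At an unadjusted p under 0.05 the members counted 0, 1 and 0 in that order, against 16.1%, 4.44% and 9.31% of all tested probe sets. A moderated F test over the 3 groups also called 0 of 12 (0.0828% of all), and 0 at an unadjusted p under 0.05 (11.6% of all). The 36 differences lay between -0.08 and 0.08, and all pairs of groups overlapped for each of the 12 probe sets (0.0322%, 0.0046% and 0% of all tested probe sets did not overlap, in the same order of comparisons). With the 5 arrays high on the second component left out together, 0 of the 12 passed in any comparison. Over all 21729 tested probe sets 12, 0 and 0 passed in that fit, in the same order of comparisons. With any 1 of the 29 arrays left out, 0 of the 12 passed as well, and the share over all probe sets was not counted there. So few calls over all probe sets make these counts of 0 say little about PKC.

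The precision of the arrays bounded these differences only in part. The 95% intervals of 31 of the 36 differences lay within 0.2 of 0 on the log2 scale, and those of 3 lay within 0.1. The lowest limit was -0.24 (Prkcd, continuous minus water), which is 0.844-fold, and the highest was 0.23 (Prkcd, limited minus continuous), which is 1.17-fold. The median size of a member's difference was 0.05 for continuous against water, 0.03 for limited against water and 0.04 for limited against continuous. Over all tested probe sets these medians were 0.05, 0.04 and 0.04. The narrowest of the 36 intervals still reached 0.08 to either side of its difference, so differences of such a median size could be missed.

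**Figure D1:**
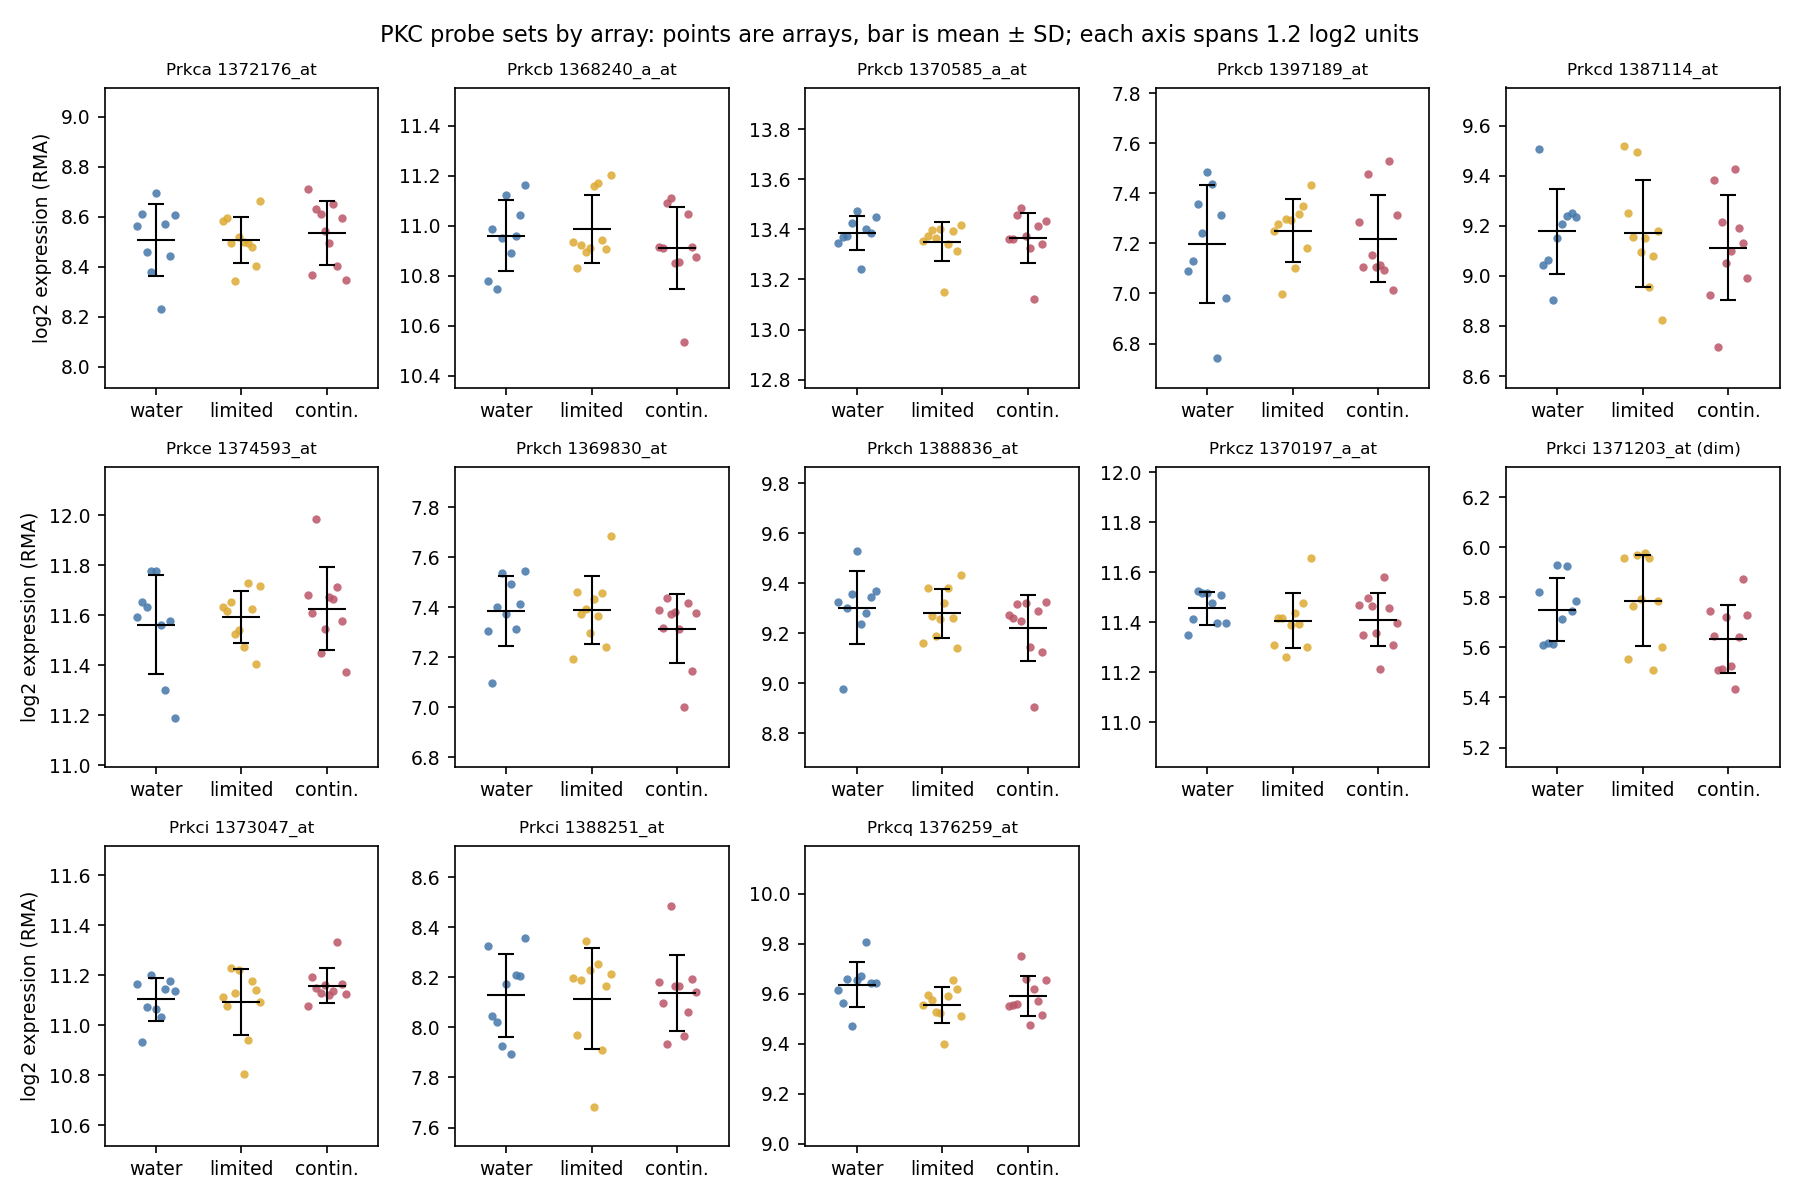
Log2 expression (vertical axis, 1.2 log2 units in every panel) of the 13 PKC probe sets in each array of the water (n = 9), limited (n = 10) and continuous (n = 10) groups; points are arrays, and the bar and whiskers are mean ± SD. The groups overlap in every panel, and single low arrays stand out for Prkcb and Prkch in the continuous group.

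The promoters of 6 of the 8 genes were found in a RefSeq table of rat assembly GRCr8 (Prkca, Prkcd, Prkce, Prkcz, Prkci and Prkcq), and the 250 bases before the start site were read. All 6 were rich in G and C, between 66.8% and 74.8%, against a median of 51.2% over 33469 promoters of the same length. They held between 19 and 36 CpG dinucleotides, where the median promoter held 5, and 18.4% of all promoters held 19 or more. The promoters of 1 conventional, 1 calcium-independent and 1 atypical isoform are shown so that their make-up can be compared. Capitals mark GC boxes (GGGCGG, either strand) and CCAAT boxes (CCAAT, either strand), which may overlap each other.
Prkca, chr10:93787328-93787577, minus strand: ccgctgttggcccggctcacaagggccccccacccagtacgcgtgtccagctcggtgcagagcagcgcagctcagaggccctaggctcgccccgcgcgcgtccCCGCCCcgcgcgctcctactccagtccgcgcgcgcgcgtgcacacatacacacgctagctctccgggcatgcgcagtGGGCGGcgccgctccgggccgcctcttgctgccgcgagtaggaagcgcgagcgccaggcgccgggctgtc
Prkcd, chr16:5805840-5806089, minus strand: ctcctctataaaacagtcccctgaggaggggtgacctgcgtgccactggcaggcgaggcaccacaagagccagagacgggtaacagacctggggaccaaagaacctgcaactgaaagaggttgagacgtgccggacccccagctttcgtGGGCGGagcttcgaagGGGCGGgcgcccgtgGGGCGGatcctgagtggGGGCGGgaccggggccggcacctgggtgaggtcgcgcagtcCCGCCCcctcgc
Prkcz, chr5:171212675-171212924, minus strand: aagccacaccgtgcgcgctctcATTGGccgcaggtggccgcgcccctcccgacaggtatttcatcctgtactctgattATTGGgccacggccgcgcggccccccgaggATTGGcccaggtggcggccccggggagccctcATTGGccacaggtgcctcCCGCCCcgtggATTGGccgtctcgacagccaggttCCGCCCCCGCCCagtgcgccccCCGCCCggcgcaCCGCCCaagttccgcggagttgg

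Each of the 6 promoters held at least 1 GC box, with 5 each in Prkcd and Prkcz and 2 in Prkca, and 30.5% of all promoters held at least 1. Prkcz was alone among the 6 in having CCAAT boxes, with 5, and 34% of all promoters held at least 1. The TPA response element bound by AP-1 (TGANTCA, either strand), named after a phorbol ester that activates PKC, had 0 matches in the 6 windows and was found in 6.34% of all promoters. The cAMP response element (TGACGTCA) had 0 matches as well, against 1.59% of all promoters. These are matches of letters in short windows only.

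Among the conventional isoforms, Prkca, which encodes the widely expressed PKC alpha, was measured by 1 probe set (1372176_at). It ranged from 8.23 to 8.70 in water (median 8.56), from 8.34 to 8.66 in limited (median 8.50) and from 8.35 to 8.71 in continuous arrays (median 8.57). The groups covered nearly the same range. The means were 8.51 ± 0.14 (SD, n = 9), 8.51 ± 0.09 (SD, n = 10) and 8.53 ± 0.13 (SD, n = 10), and continuous minus water was 0.03 ± 0.06 (SE, 95% interval -0.08 to 0.14, adjusted p = 0.828).

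Prkcb, whose alternative splicing gives PKC beta I and beta II, had 3 probe sets. On 1370585_a_at it ranged from 13.24 to 13.47 in water (median 13.39), from 13.15 to 13.42 in limited (median 13.37) and from 13.12 to 13.48 in continuous arrays (median 13.37). The lowest values came from limited replicate 6 and continuous replicate 7, and the other arrays of those groups lay at or above 13.31 and 13.32. Continuous minus water was -0.02 ± 0.04 (SE, adjusted p = 0.860) and limited minus water -0.03 ± 0.04 (adjusted p = 0.972). The second probe set (1368240_a_at) had means of 10.96 ± 0.14 (SD) in water, 10.99 ± 0.13 in limited and 10.91 ± 0.16 in continuous arrays. Its continuous minus water difference of -0.05 ± 0.07 was -0.01 without continuous replicate 7, the lowest array at 10.54. The remaining probe set (1397189_at) varied most between arrays, with an SD within groups of 0.18, and its means were 7.20 ± 0.24 (SD) in water, 7.25 ± 0.13 in limited and 7.22 ± 0.18 in continuous arrays. Its differences from water were 0.02 ± 0.08 (continuous) and 0.05 ± 0.08 (limited).

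Deviations of the Prkcb probe sets from their group means were only loosely related over the 29 arrays, although they are assigned to 1 gene. Pearson's r was 0.48 (Spearman's rho 0.44) between 1370585_a_at and 1368240_a_at and 0.21 without the 2 arrays farthest from the median, 0.23 (rho 0.33) between 1370585_a_at and 1397189_at and 0.21 (rho 0.17) between 1368240_a_at and 1397189_at. All correlations here are over 29 arrays, which share preparation and normalization, and describe these arrays only.

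Of the calcium-independent isoforms that respond to diacylglycerol, Prkce, which encodes PKC epsilon, ranged from 11.19 to 11.78 in water (median 11.59), from 11.40 to 11.73 in limited (median 11.62) and from 11.37 to 11.98 in continuous arrays (median 11.64). Its order of means, continuous above limited above water, rested on 11.63 ± 0.17 (SD), 11.59 ± 0.10 and 11.56 ± 0.20. No neighbours in that order differed beyond their spread. Continuous minus water was 0.06 ± 0.07 (SE, 95% interval -0.08 to 0.21, adjusted p = 0.670), and limited minus water was 0.03 ± 0.07 (adjusted p = 0.983). Without water replicate 9, the lowest array at 11.19, the first of these was 0.02 and the second -0.02.

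Prkcd, which encodes PKC delta, had the widest spread of the 12 tested probe sets (1387114_at). It ranged from 8.90 to 9.51 in water (median 9.21), from 8.83 to 9.52 in limited (median 9.15) and from 8.72 to 9.43 in continuous arrays (median 9.12). The SD within groups was 0.20, against a median of 0.12 over all tested probe sets, and 88.7% of those varied less. The groups overlapped over nearly their whole range, and continuous minus water was -0.06 ± 0.09 (SE, 95% interval -0.24 to 0.11, adjusted p = 0.740).

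Prkcq, which encodes PKC theta, best known for signalling in T cells, varied little between arrays and had the smallest unadjusted p among the 12 tested probe sets. It ranged from 9.47 to 9.81 in water (median 9.64), from 9.40 to 9.65 in limited (median 9.56) and from 9.48 to 9.75 in continuous arrays (median 9.56). Of the 10 limited arrays, 9 lay below the water mean, yet the ranges overlapped. Limited minus water was -0.08 ± 0.04 (SE, 95% interval -0.16 to -0.0022, unadjusted limma p = 0.0444, adjusted p = 0.972), from 9.64 ± 0.09 (SD) to 9.55 ± 0.07. This was the member counted above at an unadjusted p under 0.05, and its interval was the 1 among 36 that did not hold 0. Continuous minus water was -0.04 ± 0.04 (adjusted p = 0.578).

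Prkch, which encodes PKC eta, had 2 probe sets. On the brighter (1388836_at) it ranged from 8.98 to 9.53 in water (median 9.33), from 9.14 to 9.43 in limited (median 9.26) and from 8.91 to 9.32 in continuous arrays (median 9.27). Water replicate 2 and continuous replicate 7 lay lowest in their groups, and the highest continuous array lay below the water median. The means were 9.30 ± 0.15 (SD), 9.28 ± 0.10 and 9.22 ± 0.13. Continuous minus water was -0.08 ± 0.06 (SE, 95% interval -0.20 to 0.03, adjusted p = 0.481), the smallest adjusted p among the 12 tested probe sets in this comparison, with 7 of 10 continuous arrays below the water mean. The dimmer probe set (1369830_at) gave -0.07 ± 0.06 (adjusted p = 0.577), also with 7 of 10 below. With the 5 arrays high on the second component left out, the differences were -0.11 and -0.10, and neither passed. Leaving out continuous replicate 7, the lowest continuous array on both probe sets, made both differences smaller in size. Leaving out water replicate 2, the lowest water array on both, made them larger. Over all alternatives they lay between -0.13 and -0.01 on the brighter and between -0.13 and -0.0008 on the dimmer probe set.

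**Figure D2:**
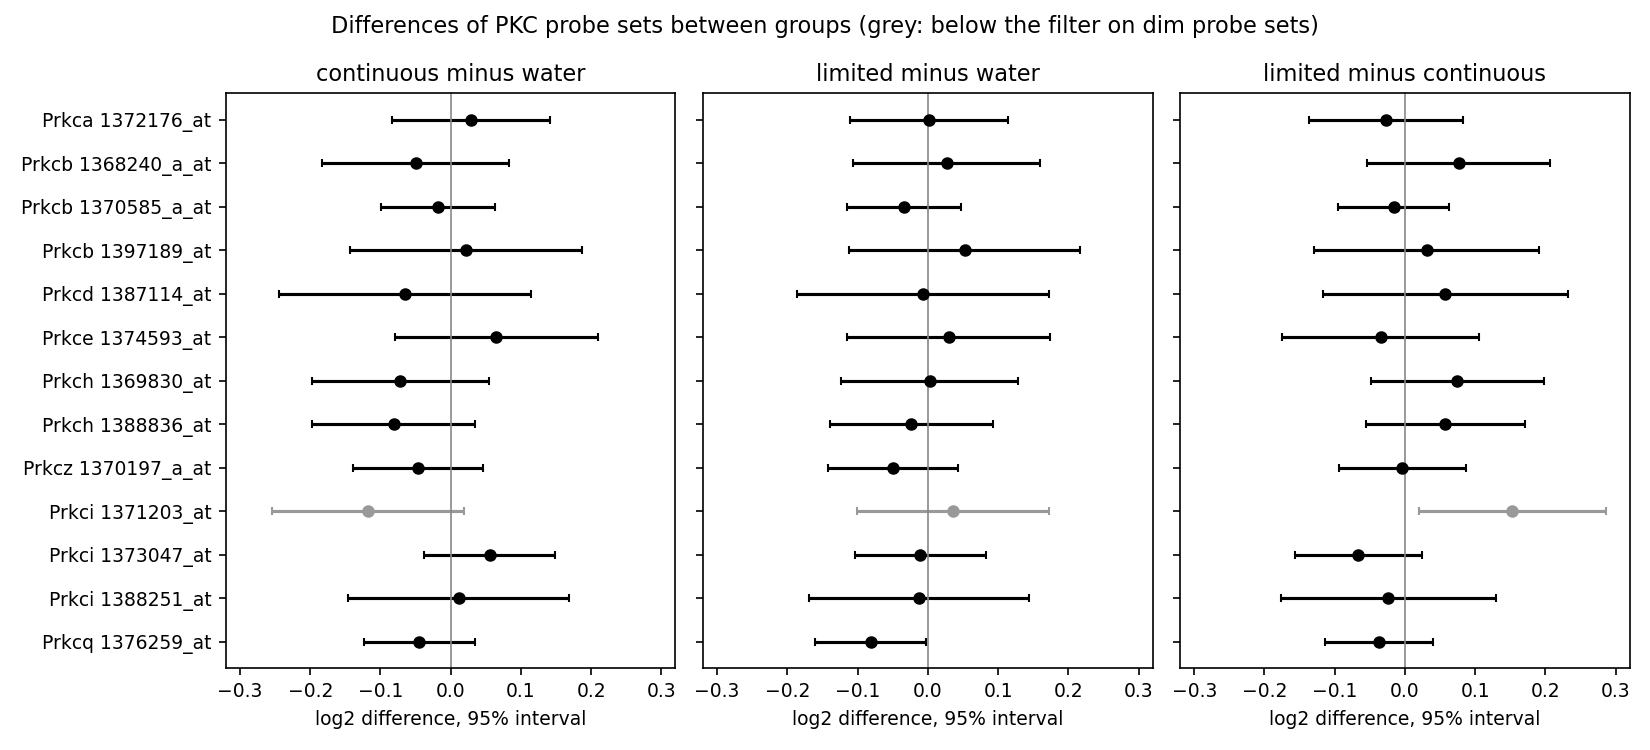
Difference of group means (points, log2 scale) with 95% intervals (whiskers, limma) of the 13 PKC probe sets for continuous minus water, limited minus water and limited minus continuous; grey marks the Prkci probe set below the filter. Black intervals hold 0 except that of Prkcq for limited minus water, which ends at -0.0022.

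From the gene of the atypical isoform Prkcz, brain also makes the constitutively active form known as PKM zeta. Prkcz ranged from 11.35 to 11.53 in water (median 11.48), from 11.26 to 11.66 in limited (median 11.40) and from 11.21 to 11.58 in continuous arrays (median 11.43). Both ethanol groups reached lower and higher values than the water group. Limited minus water was -0.05 ± 0.05 (SE, adjusted p = 0.972), with 8 of 10 limited arrays below the water mean, and continuous minus water was -0.05 ± 0.05 (adjusted p = 0.630), with 5 of 10 below.

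Prkci, which encodes PKC iota, a partner of the polarity proteins Par3 and Par6, had 3 probe sets. On the brightest (1373047_at) it ranged from 10.93 to 11.20 in water (median 11.14), from 10.80 to 11.23 in limited (median 11.12) and from 11.08 to 11.33 in continuous arrays (median 11.14). In the continuous group 9 of 10 arrays lay above the water mean, but medians were alike, and continuous minus water was 0.06 ± 0.05 (SE, 95% interval -0.04 to 0.15, adjusted p = 0.557). Limited minus continuous was -0.07 ± 0.04 (adjusted p = 0.637). With the 5 arrays high on the second component left out, these differences were 0.01 and -0.01. Measures of RNA quality moved with this probe set in opposite directions. It varied with the beta-actin signal (r = 0.60, rho 0.52, 0.64 without the 2 farthest arrays, and 1.54% of all tested probe sets lay at least as far from 0), and the mean of that signal was 0.08 higher in continuous than in water arrays and 1.17 in limited against 1.27 in continuous arrays. It varied against the GAPDH signal (r = -0.48, rho -0.42, -0.52 without the 2 farthest arrays) and only loosely with the mean of both signals (r = 0.21, rho 0.19, 0.29). With that mean as a covariate, limited minus continuous was -0.04 (adjusted p = 0.986); neither signal was used as a covariate alone.

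The remaining Prkci probe sets, 1388251_at and 1371203_at, are annotated to the same sequence accession. The former differed by 0.01 ± 0.08 (continuous minus water) and -0.01 ± 0.08 (limited minus water). The latter was the member left out as dim, at a mean of 5.72 against a filter at 6.86. It ranged from 5.61 to 5.93 in water, from 5.51 to 5.98 in limited and from 5.43 to 5.87 in continuous arrays, and 9 of 10 continuous arrays lay below the water mean. Tested without the filter, its continuous minus water difference was -0.12 ± 0.07 (SE, unadjusted limma p = 0.0904, adjusted p = 0.404) and its limited minus continuous difference was 0.15 ± 0.07 (SE, unadjusted limma p = 0.0260, adjusted p = 0.510). The brightest Prkci probe set had the opposite sign in that comparison, and r between them was -0.17 (rho -0.09, -0.13 without the 2 farthest arrays).

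Order among the group means had no common form over the family. Over the 12 tested probe sets, water was highest in 5, continuous in 4 and limited in 3. The median difference of the members was -0.03 for continuous minus water, -0.01 for limited minus water and -0.01 for limited minus continuous, against 0.00, 0.0007 and -0.01 over all tested probe sets.

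Spans between group means were set against the SD of single arrays within groups. The largest spans between group means were 0.081, in the brighter Prkch probe set and in Prkcq, next to 0.077 in Prkcb 1368240_a_at. The span exceeded the SD within groups in Prkcq (1.01 times) and in no other tested member. Between probe sets of different genes, the 61 correlations had a median r of 0.07 and lay between -0.47 (Prkcd with the dimmer Prkch probe set) and 0.58 (Prkce with Prkcb 1397189_at, rho 0.51, 0.51 without the 2 farthest arrays). Prkcd ran against most of its family, with r of -0.45 with Prkcb 1368240_a_at (rho -0.34, -0.27 without the 2 farthest arrays) and -0.43 with Prkcz (rho -0.46, -0.36). The 2 Prkch probe sets had the highest r of all pairs, 0.78 (rho 0.65, 0.61 without the 2 farthest arrays). Without the 2 farthest arrays Prkcz was as close to them, at r = 0.68 with the dimmer and 0.61 with the brighter, against 0.37 and 0.25 over all arrays.

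**Figure D3:**
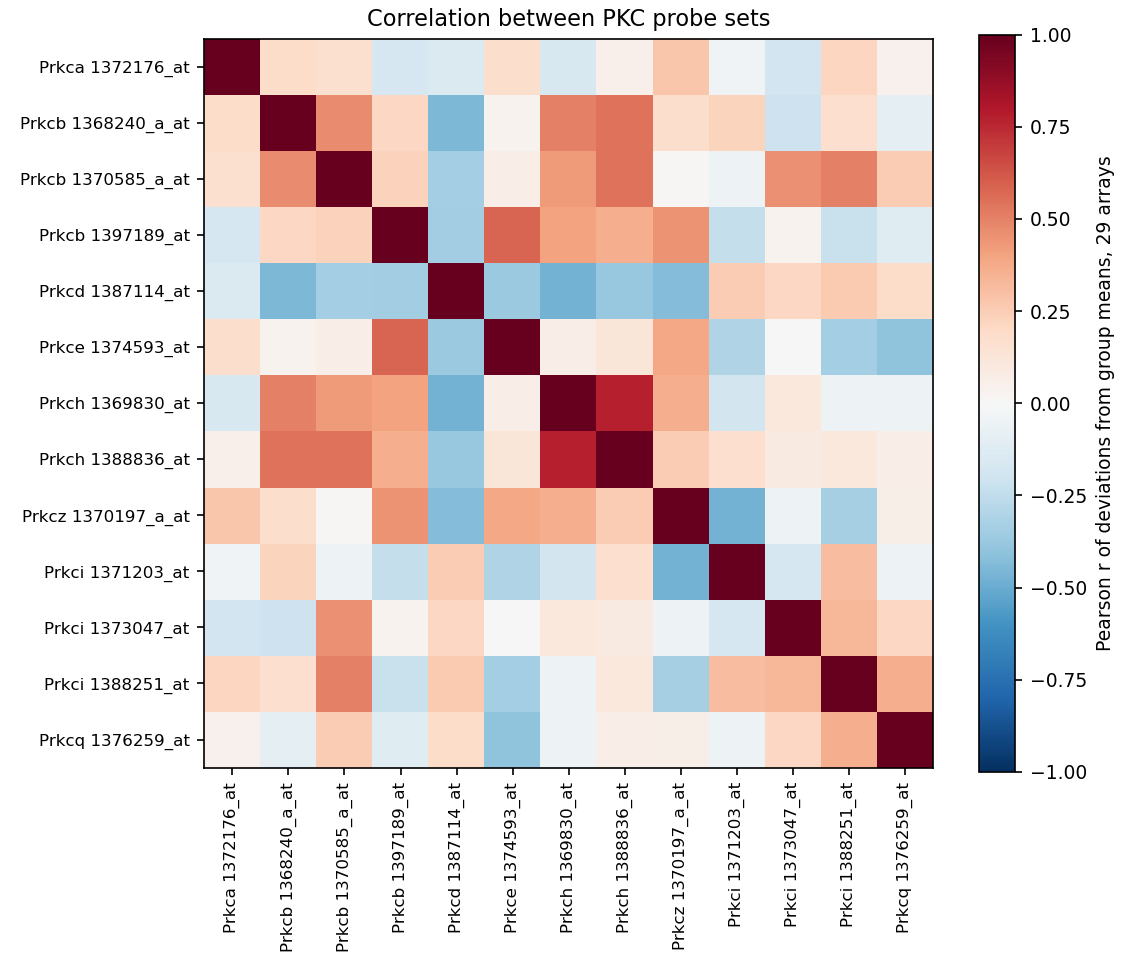
Pearson r (colour, from -1 in blue to 1 in red) between the 13 PKC probe sets on both axes, from deviations of 29 arrays from their group means. The 2 Prkch probe sets form the deepest block off the diagonal (0.78), and the row of Prkcd is mostly blue.

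Prkch varied with the markers of medium spiny neurons, the projection neurons that make up most of the striatum. A score of 18 such markers was taken as their mean deviation per array. Its correlation with Prkch, from deviations within groups, was r = 0.88 on the brighter probe set (rho 0.79, 0.78 without the 2 farthest arrays) and 0.78 on the dimmer (rho 0.63, 0.64). Among 21695 other tested probe sets not on the marker list, 6 had an r at least as high as the brighter and 17 as the dimmer, and the median was 0.04. The markers themselves, each set against the rest of the list, had r between 0.30 and 0.92 with a median of 0.75.

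Within groups the brighter probe set gave r = 0.82 in water (rho 0.33, n = 9), 0.94 in limited (rho 0.95, n = 10) and 0.91 in continuous arrays (rho 0.77, n = 10), and 0.86 over the 28 arrays without continuous replicate 7. The relation in water rested on water replicate 2: without it r was 0.34 (rho 0.05, n = 8), and on the dimmer probe set it went from 0.66 to -0.02. The probe sets most like Prkch were those of Pdyn, the prodynorphin gene (r = 0.87, rho 0.77, 0.81 without the 2 farthest arrays), and Drd1, the D1 dopamine receptor (r = 0.87, rho 0.78, 0.76). Both genes are on the marker list, so these values are not independent of the score. Over all tested probe sets with 1 symbol the best partner had a median r of 0.80, and 84.1% had a lower best r than Prkch.

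The marker score was 0.03 ± 0.12 (SD) in water, 0.01 ± 0.09 in limited and -0.04 ± 0.11 in continuous arrays, and its difference between continuous and water had an exact permutation p of 0.198 (adjusted p = 0.405 over 11 array measures). With the score as a covariate, the Prkch difference of continuous minus water was -0.01 ± 0.03 (SE) on the brighter probe set and -0.0008 ± 0.04 on the dimmer, against the -0.08 and -0.07 given above. The Prkch difference had not passed, and the part of the score in it was not tested. Fewer cells of a type and less RNA per cell cannot be told apart in such tissue samples. With a score of 16 leptomeningeal markers as a covariate, these differences were -0.13 and -0.13 (adjusted p = 0.262 and 0.267). That score was -0.11 ± 0.57 (SD) in continuous and 0.21 ± 0.38 in water arrays, and Prkch varied against it (r = -0.55 and -0.62, rho -0.35 and -0.48) and against the astrocyte score (r = -0.61 and -0.53, rho -0.40 and -0.34).

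**Figure D4:**
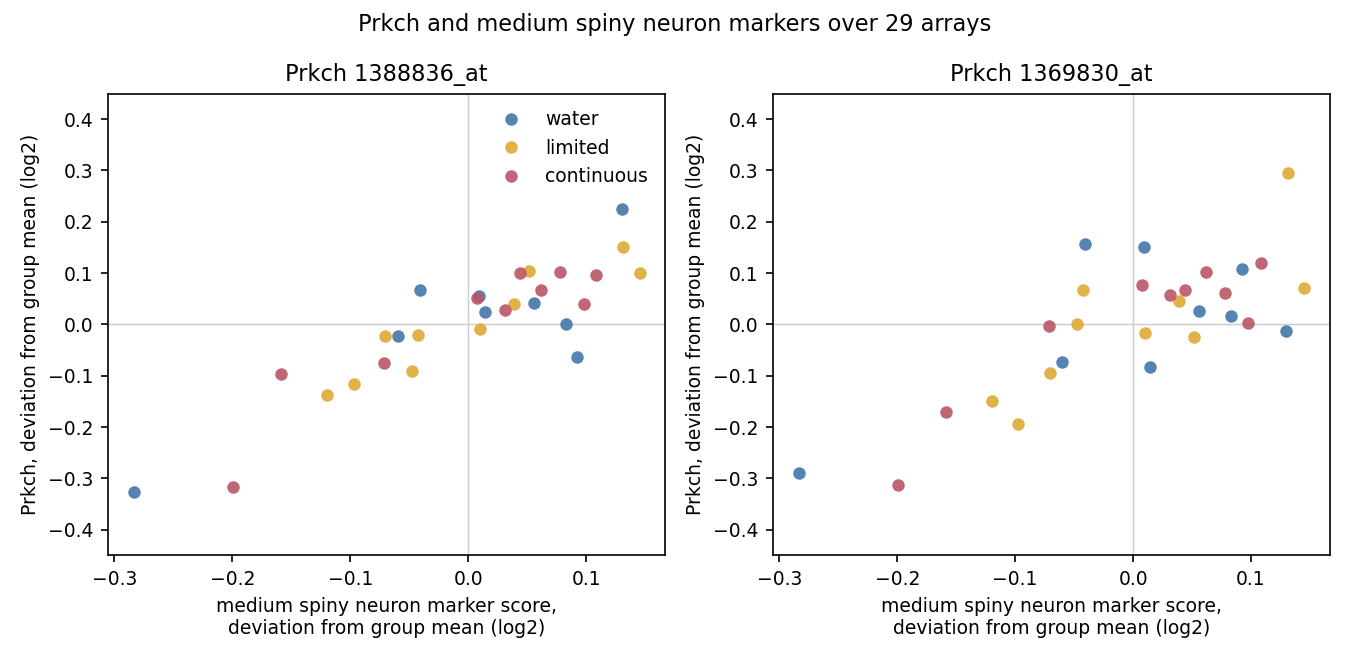
Deviation of Prkch from its group mean (vertical axis, log2) against that of the medium spiny neuron marker score (horizontal axis, log2) in 29 arrays, coloured by group, for the brighter (left) and dimmer (right) probe set. The points rise together on the left (r = 0.88), with water replicate 2 and continuous replicate 7 at the lower end; within water the rise rests on replicate 2.

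Relations of other members with the array measures are named next, picked from those of 12 probe sets with 11 measures. With the medium spiny neuron score, Prkcb 1397189_at had r = 0.50 (rho 0.55, 0.55 without the 2 farthest arrays), and Prkcz had r = 0.36 (rho 0.45) but 0.64 without the 2 farthest arrays, a value equal to that of the dimmer Prkch probe set. Over all arrays, 5.95% and 16% of all tested probe sets lay at least as far from 0 as these 2. Prkcb 1368240_a_at varied with 9 cortical neuron markers (r = 0.63, rho 0.62, 0.66 without the 2 farthest arrays) and against 9 thalamic and septal markers (r = -0.65, rho -0.66, -0.67), and 2.72% and 1.44% of all tested probe sets lay at least as far from 0. Prkcb 1370585_a_at varied against 10 astrocyte markers (r = -0.68, rho -0.49, and 2.59% lay at least as far from 0), a relation of -0.33 without the 2 farthest arrays. Prkcd varied with the thalamic and septal markers (r = 0.55, and 4.30% lay at least as far from 0). Prkci 1388251_at varied against the 3 prime minus 5 prime signal of GAPDH, a measure of RNA quality and labelling (r = -0.63, rho -0.60, -0.57, and 1.79% lay at least as far from 0). With the mean of that signal and the one of beta-actin as a covariate, its limited minus continuous difference was -0.13 in place of -0.02. Prkcz varied with that mean (r = 0.50, rho 0.43, 0.37 without the 2 farthest arrays, and 1.45% lay at least as far from 0). With the mean as a covariate, the limited minus continuous difference of Prkcz was 0.06 in place of -0.0038. Prkcb 1370585_a_at varied against the GAPDH signal (r = -0.60, rho -0.26, -0.31 without the 2 farthest arrays, and 2.49% lay at least as far from 0).

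Likeness was also sought gene by gene over all tested probe sets with 1 symbol, where the best partner of a probe set had a median r of 0.80. Prkce had the closest partners, Plppr4, a phospholipid phosphatase related protein of synapses (r = 0.92, rho 0.86, 0.90 without the 2 farthest arrays), and Ptprj, a receptor tyrosine phosphatase (r = 0.92, rho 0.88, 0.90), and 96% of probe sets had a lower best r. The brightest Prkcb probe set was most like Ndrg4 (r = 0.86, rho 0.74, 0.64) and Nsf, which encodes the ATPase that takes apart vesicle fusion complexes (r = 0.84, rho 0.66, 0.66). Its relations weakened without the 2 farthest arrays. Prkci was most like Senp7 and Rprd1b (r = 0.84 each, rho 0.71 and 0.76), and Prkcz most like Tesc and Fam120b (r = 0.84 and 0.78, rho 0.73 and 0.74). For Prkcd the closest were Drc12 and C13h1orf115 (r = 0.79 and 0.74, rho 0.62 and 0.60), for Prkcq Rcan2 and Naa35 (r = 0.77 and 0.70, rho 0.71 and 0.72), and for Prkca Rgs3 and Rab5if (r = 0.73 and 0.70, rho 0.71 and 0.70). The best r of Prkca was above that of only 16% of probe sets.

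Of the listed genes around the kinases, each on its brightest tested probe set, none passed the threshold either. The list of Gq proteins and phospholipase C, which supplies diacylglycerol, also held inositol trisphosphate receptors. Of its 17 tested genes 0 rose and 0 fell in each of the 3 comparisons, with medians of -0.04, -0.01 and 0.03 (continuous minus water, limited minus water, limited minus continuous). At an unadjusted p under 0.05 limma placed 2, 0 and 1 of them. Here and for the 4 lists that follow, the shares over all tested probe sets at that p were 16.1%, 4.44% and 9.31% in the same order. At an adjusted p of 0.05 they were 0.152%, 0% and 0.0046%, so counts of 0 in lists of this size say little about their genes. Plcg1, which encodes a phospholipase C of receptor tyrosine kinases, had means of 10.48 (continuous) and 10.65 (water), a difference of -0.17 ± 0.05 (SE, adjusted p = 0.165) with 10 of 10 continuous arrays below the water mean, and limited minus continuous was 0.13 ± 0.05 (adjusted p = 0.526). The inositol trisphosphate receptor gene Itpr3 had differences of -0.14 ± 0.07 and 0.13 ± 0.07 in the same comparisons. For limited minus water the smallest p belonged to Itpr2 (-0.06 ± 0.04) and Plcd3 (-0.07 ± 0.05).

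Diacylglycerol kinases, which end the signal by phosphorylating the lipid, and lipases were tested with 10 genes, of which 0 rose and 0 fell, with 2, 1 and 1 at an unadjusted p under 0.05 and medians of at most 0.01 in size. Dgke was higher in 10 of 10 continuous arrays than the water mean (0.13 ± 0.04, adjusted p = 0.152) and in 9 of 10 limited arrays (0.09 ± 0.04, adjusted p = 0.972). Dgka lay below the water mean in 10 of 10 continuous arrays (-0.16 ± 0.06, adjusted p = 0.196), and limited minus continuous was 0.14 ± 0.06 (adjusted p = 0.526). Dgkb differed by 0.09 ± 0.06 (limited minus water) and 0.08 ± 0.06 (limited minus continuous).

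Among 22 regulators and scaffolds of PKC 0 rose and 0 fell, with 1, 0 and 3 at an unadjusted p under 0.05 and medians of 0.01, 0.01 and -0.0030. Wwc1, which encodes KIBRA, a scaffold that binds PKC zeta, differed by 0.22 ± 0.10 (continuous minus water, adjusted p = 0.255) and -0.23 ± 0.09 (limited minus continuous, adjusted p = 0.526), with 10 of 10 limited arrays below the continuous mean. Pdpk1, the kinase that phosphorylates the activation loop of PKC, differed by -0.09 ± 0.04 (limited minus continuous, adjusted p = 0.527). Sqstm1, a scaffold of atypical isoforms, differed by 0.05 ± 0.03 (continuous minus water), and the polarity genes Pard6a and Pard6b by 0.07 ± 0.04 and 0.08 ± 0.05 (limited minus water).

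Of 16 PKC substrate genes 0 rose and 0 fell, with 3, 1 and 1 at an unadjusted p under 0.05 and medians of 0.04, 0.02 and -0.01. Marcks, which encodes a major PKC substrate that binds actin and membranes, had means of 12.30 (continuous), 12.13 (water) and 12.14 (limited). All 10 continuous arrays lay above the water mean (0.17 ± 0.06, adjusted p = 0.167), and all 10 limited arrays lay below the continuous mean (-0.16 ± 0.05, adjusted p = 0.526). Basp1, a related membrane protein of axons, differed by 0.13 ± 0.06 (continuous minus water, adjusted p = 0.278) and 0.15 ± 0.06 (limited minus water, adjusted p = 0.972). Dtnbp1 differed by 0.05 ± 0.03 (limited minus water) and Ppp1r14c by -0.08 ± 0.04 (limited minus continuous).

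Of 14 other diacylglycerol targets and PKC-related kinases 0 rose and 0 fell, with 1, 2 and 0 at an unadjusted p under 0.05 and medians of -0.05, -0.02 and 0.01. Rasgrp2, which encodes an exchange factor for Rap gated by calcium and diacylglycerol, differed by -0.08 ± 0.05 (continuous minus water, adjusted p = 0.382) and -0.11 ± 0.05 (limited minus water, adjusted p = 0.972). Prkd3, which encodes a protein kinase D that PKC activates, differed by -0.12 ± 0.05 (limited minus water, adjusted p = 0.972). Pkn3 differed by -0.14 ± 0.06 (continuous minus water, adjusted p = 0.282) and 0.09 ± 0.06 (limited minus continuous). Prkcsh, which despite its symbol encodes a subunit of glucosidase II, differed by 0.06 ± 0.04 (limited minus continuous).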

How the data were processed

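RNA of 29 accumbens shell samples, extracted with Trizol and RNeasy columns per the labels' protocols, was labelled as biotinylated cRNA and hybridised to 1-colour Affymetrix arrays. The authors deposited log2 expression values made with RMA, per the submitters' processing notes; the sources used here do not give its software, version or any batch, and the values span 4.04 to 16.04, a range taken as log2. Quantile normalization in RMA hides a change of all transcripts together, and the number of arrays limits the precision. Levels of different probe sets were not compared.

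Probe sets were named from the platform annotation (20832 with 1 symbol, 436 with several, 9831 with none). The 57 control probe sets and the dimmest 30% of the others by mean over all arrays (at or below 6.86) were left out. All 29 arrays entered 1 fit with group as its only factor (limma 3.58.1, R 4.3.3, two-sided, Benjamini-Hochberg over 21729 probe sets, threshold 0.05), which was tested on simulated data. Genes of lists stood on their brightest tested probe set, and from each list the 2 of smallest p per comparison were named. For each member the 2 genes of highest r were named. Measures per array were tested between groups with exact permutations, two-sided. The members and lists were chosen with earlier results of these data known. Alternatives covered filters, normalization, prior, array weights, replicate block, covariates and leaving out arrays.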

Additional observations from a re-analysis of the deposited data

Results flagged for a closer look

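Over the 13 PKC probe sets and 3 groups, 39 sets of arrays were searched for an array that stood apart from the rest of its group by Dixon's 95% limit, and chance gives about 1 in 20. There were 6 such values, 3 of them from continuous replicate 7. That array was lowest of its group for Prkcb on 1368240_a_at (10.54, the next at 10.85) and on 1370585_a_at (13.12, the next at 13.32) and for Prkch on 1388836_at (8.91, the next at 9.13). It also had the lowest medium spiny neuron score of the continuous group (-0.24) and the highest astrocyte (0.26), microglia (0.41) and leptomeningeal (0.65) scores of that group. Its GAPDH 3 prime minus 5 prime signal (-0.03) was the highest of the group, and its mean of the beta-actin and GAPDH signals (0.66) the highest of all 29 arrays. The part of these measures in its PKC values was not tested. Limited replicate 6 was lowest of its group for Prkcb on 1370585_a_at (13.15, the next at 13.31). Continuous replicate 8 was highest for Prkci on 1373047_at (11.33, the next at 11.19), and continuous replicate 4 was highest for Prkci on 1388251_at (8.49, the next at 8.19). Without continuous replicate 7 and limited replicate 6 together, an alternative chosen after seeing the data, 0 of 12 PKC probe sets passed in any comparison. Over all 21729 tested probe sets 87 (continuous minus water), 3 (limited minus water) and 0 (limited minus continuous) passed in that fit.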

How the results depend on the processing

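The counts of PKC probe sets past the threshold were 0 in the 3 comparisons and the F test, and they were 0 under all 44 alternatives run, 29 of which left out 1 array each (range 0 to 0). The fit of only 2 groups gives no F test. Over the 1563 values of single members under these alternatives, the smallest adjusted p was 0.262 (Prkch, continuous minus water, leptomeningeal covariate), and none moved by more than the SD within groups. That SD is a wide limit, since the differences themselves lay between -0.08 and 0.08. Within it, limited minus continuous of Prkci 1388251_at went from -0.02 to -0.13, so the limit does not show that the values were stable. Signs changed in 98 of the 1563 values. In those the value without the alternative was at most 0.05 in size and the value with it at most 0.06, and no direction had been called. With the replicate number as a block 0 PKC probe sets passed and the count over all probe sets for continuous minus water was 28 in place of 33. The numbers gave no clear sign of pairing. Correlations of deviations of same-numbered arrays lay between -0.24 and 0.34, above 0.1 in 12 of 28 pairs, and 2 of 29 arrays were most like an array of their own number. These correlations were not set against those of differently numbered arrays, so they do not settle the question. The count over all probe sets for continuous minus water was 12 when the 5 arrays high on the second component were left out, 20 with 1 probe set per gene, where fewer were tested, and 87 without continuous replicate 7 and limited replicate 6; for limited minus water it was 0 and reached 1 with array weights and 3 in the last of these settings, and for limited minus continuous it was 1 and lay between 0 and 2; apart from that construction, the cause was not tested.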
